A study of Mus musculus with 2 samples.

Results

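The histone genes described here are the 79 protein-coding genes of the deposited mm10 gene tables whose symbol starts with Hist1h, Hist2h, Hist3h, Hist4h, H1f, H2af or H3f, out of 43346 genes in those tables. They comprise 58 replication-dependent core genes (18 for H2A, 15 for H2B, 12 for H3 and 13 for H4), 11 replacement core genes (the H2af and H3f symbols), 5 cluster linker genes (Hist1h1a to Hist1h1e) and 5 other linker genes (H1f0, H1fx, H1foo, H1fnt and Hist1h1t). The organ was embryonic day 14.5 liver of C57BL/6J mice, from mixed male and female littermates, with no transgene, deletion or treatment named in the labels. Poly(A)-selected, ribosomal RNA-depleted RNA above 200 nt was sequenced as stranded pairs of 101-base reads. The series holds 1 group of 2 libraries, called biological replicates 1 and 2, and no contrast between conditions. What can be read is how much of each histone mRNA the organ held and how far its 2 libraries differed. Nothing says more of how the replicates were taken, so the spread between them may be partly technical.

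Nucleosomes wrap DNA around an octamer of the core histones H2A, H2B, H3 and H4, and linker histones of the H1 family bind where the DNA enters and leaves. Replication-dependent genes lie in clusters, have no introns as a rule and are made in S phase, and their main mRNA ends just after a 3′ stem-loop bound by SLBP instead of in a poly(A) tail. Replacement genes are made throughout the cell cycle, are mostly spliced and carry poly(A) tails, and several cluster genes can also give longer polyadenylated mRNA. In a poly(A)-selected library the first kind is thus counted mainly through whatever polyadenylated or carried-over RNA it yields. Fetal liver is rich in dividing erythroblasts.

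Summed over genes, replicate 1 held 102720920 estimated counts and replicate 2 held 65640933. The histone genes took 0.367% and 0.356% of them. The 6 liver markers checked (Alb, Afp and others) and the 8 erythroid markers were all at 100 TPM or more in both libraries, and Alb, the main plasma protein, stood at 10324 TPM and 8911 TPM. Of 8 germ cell markers checked, the protamine and transition protein genes Prm1, Prm2, Tnp1 and Tnp2, which mark sperm cells, were at 0 in both. The other 4 had few counts. Ddx4 had 101 and 51 counts (0.31 TPM and 0.21 TPM) and Gdf9 24 and 24 (0.12 TPM and 0.25 TPM). Zp3 had 0 and 3 counts and Bmp15 3 and 0. Fragments averaged 214 nt in replicate 1 and 303 nt in replicate 2, as read from the difference between length and effective length in the tables. That difference bears on every short histone model. The 399-nt Hist1h2af model, for example, kept an effective length of 186 nt in replicate 1 and 97.9 nt in replicate 2, so an equal count gave a higher TPM in replicate 2. Levels are given below in TPM and differences between the libraries in counts, and the 2 scales differed in sign for 6 of 70 tested members. These were H2afv, at 40.1 TPM and 34.9 TPM but a log2 count difference of 0.30, and 5 cluster genes (Hist1h2ae, Hist1h2bn, Hist1h2bk, Hist1h2bl and Hist1h3g) with more TPM but fewer scaled counts in replicate 2, Hist1h2bn most at −0.51. TPM is the authors' abundance per effective length scaled to a fixed total per library, and ± marks the SD over n = 2 libraries.

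The stem-loop, the processing signal of replication-dependent mRNA, was looked for in the 100 nt after the stop codon of the GENCODE M21 transcripts (mm10), on the sense strand, as 16 bases that read GG, CT, T, AG and CC in that order with a pair of free bases after GG, CT and AG and a single free base after T. It was found in 40 of 58 replication-dependent core genes, in 3 of 5 cluster linker genes, in Hist1h1t and in H2afx. Of 13 replication-dependent genes the annotated model ended fewer than 16 nt past the stop codon and could not be searched, so 40 of 45 searchable genes held it. Among the searchable genes without it, Hist2h3b had only 37 nt after its stop codon. Hist1h2bc, Hist1h2br and Hist1h2bq were searched in models of 2 exons, where an intron may remove bases near the stop codon. These misses do not show that the genes lack a stem-loop. Outside the histone genes 18 of 20919 protein-coding genes held the letters (0.0860%), and these 18 included Hist1h2bh and Hist1h2bm, which have no row in the tables. The stem-loop began a median of 32 nt after the stop codon in replication-dependent genes (21 to 58 nt). The following sequences, shown because the stem differs between families, are 3′ untranslated sequence of single-exon genes in mm10, written 5′ to 3′ with the 16 stem-loop bases in capitals.
Hist1h2ab, chr13:23751572-23751587, plus strand: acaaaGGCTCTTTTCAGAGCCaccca
Hist1h2bg, chr13:23571843-23571858, plus strand: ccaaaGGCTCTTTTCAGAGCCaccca
Hist2h3c2, chr3:96238485-96238500, minus strand: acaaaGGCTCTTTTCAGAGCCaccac
Hist1h3e, chr13:23561903-23561918, minus strand: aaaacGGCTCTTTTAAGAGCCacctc
Hist1h1c, chr13:23739512-23739527, plus strand: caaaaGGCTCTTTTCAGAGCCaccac
Hist1h4d, chr13:23581950-23581965, plus strand: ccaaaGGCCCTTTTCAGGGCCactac
Hist1h4f, chr13:23551291-23551306, minus strand: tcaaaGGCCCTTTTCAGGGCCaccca
Hist1h4b, chr13:23757366-23757381, plus strand: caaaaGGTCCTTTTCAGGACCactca
H2afx, chr9:44335240-44335255, plus strand: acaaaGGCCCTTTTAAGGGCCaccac

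The first 5 stem bases separated H4 from the other families. All 28 stem-loops found in H2A, H2B and H3 cluster genes and all 4 in linker genes began with GGCTC. Of the 12 in H4 genes, 10 began with GGCCC and 2 (Hist1h4b and Hist1h4j) with GGTCC. H2afx, which codes for the variant H2A.X that is phosphorylated at DNA breaks, was the only replacement gene with the letters, and its stem began with GGCCC. The annotated transcript ran on well past the stem-loop in part of the genes: 18 of the 40 replication-dependent genes with the letters had at least 100 nt beyond it, Hist4h4 had 2445 nt, and H2afx had 822 nt. The polyadenylation letters AATAAA lay in the last 50 nt of the model of 11 replication-dependent genes, among them Hist2h4, Hist4h4, Hist3h2a, Hist2h2be and Hist1h4j.

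Protein identity was computed from the coding sequences. All 13 H4 genes code for 1 identical protein of 103 residues, although they hold 12 different coding sequences. Among H3 cluster genes, 7 code for 1 identical protein of 136 residues that differs by 1 residue from that of Hist1h3a and by 4 from H3.3, the product of H3f3a. H3f3a and H3f3b code for the same protein while their coding sequences differ at 95 bases.

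Promoter letters also differed by family in RefSeq promoters (250 bases before to 50 after the start, GRCm38.p6), which were matched for 71 of 79 members. TATAAA, searched on both strands, was present in 31 of 52 replication-dependent promoters (59.6%), in 4 of 5 cluster linker promoters and in 1 of 9 replacement promoters, against 15.7% of 27025 genes. CCAAT on either strand was found at all 17 H2A, all 13 H2B and all 10 H3 cluster promoters but at 3 of 12 H4 promoters, against 41.1% of all genes. CCAAT was also found at all 5 cluster linker promoters and at 8 of 9 replacement promoters. The octamer ATTTGCAT on either strand was found at 7 H2A and 5 H2B cluster promoters and at no H3 or H4 cluster promoter, against 1.97% of all genes. Among replacement promoters 1 of 9 held the octamer. Some H2A and H2B genes lie head to head, so their windows can overlap and a single site can be scored for both genes. Hist1h2ae (minus strand, to chr13:23571220) and Hist1h2bg (plus strand, from chr13:23571396), for example, both held the octamer. The H2A and H2B counts are therefore not all of separate promoters, and shared sites were not removed. These matches describe letters in the window only.

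Among replacement genes H3.3 and H2A.Z led in mm10 TPM. H3f3a, 1 of a pair of genes for H3.3, the H3 deposited outside replication, was at 1007 TPM in replicate 1 and 608 TPM in replicate 2 (807 ± 282), rank 88 of all genes by mean TPM. H2afz, which codes for H2A.Z, a variant found at promoters, was at 712 TPM and 533 TPM (623 ± 126). H3f3b, the other H3.3 gene, was at 239 TPM and 171 TPM. All 3 were higher in replicate 1, and H2afx was higher in replicate 2, at 169 TPM and 215 TPM. H2afy, which codes for macroH2A1, was at 65.5 TPM and 48.3 TPM over all its transcripts, part of which are not annotated as protein-coding. H2afj was at 59.2 TPM and 41.5 TPM. H2afv, the second H2A.Z gene, was at 40.1 TPM and 34.9 TPM. The remaining replacement genes were low or silent: H2afy2 (macroH2A2) had a mean of 1.33 TPM, and the testis variants H2afb1, H2afb2 and H2afb3 were at 0 in both libraries, which at these depths allows up to 0.0292 CPM in replicate 1 and 0.0457 CPM in replicate 2 (3 counts of each library's total, counting error only). H2afz made up 94.7% and 93.9% of the TPM of the H2afz and H2afv pair, and H3f3a made up 80.8% and 78.1% of the H3f3a and H3f3b pair, so both pairs kept their order in both libraries. In counts, which are not per length, H2afz held 93.0% and 89.9% of its pair and H3f3a 65.2% and 65.6%. The rank of H2afz differed in the authors' mm9 gene table. There H3f3a led at 105 RPKM, but H2afz, at 39.1 RPKM, was below H3f3b (55.3) and H2afx (40.8).

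**Figure D1:**
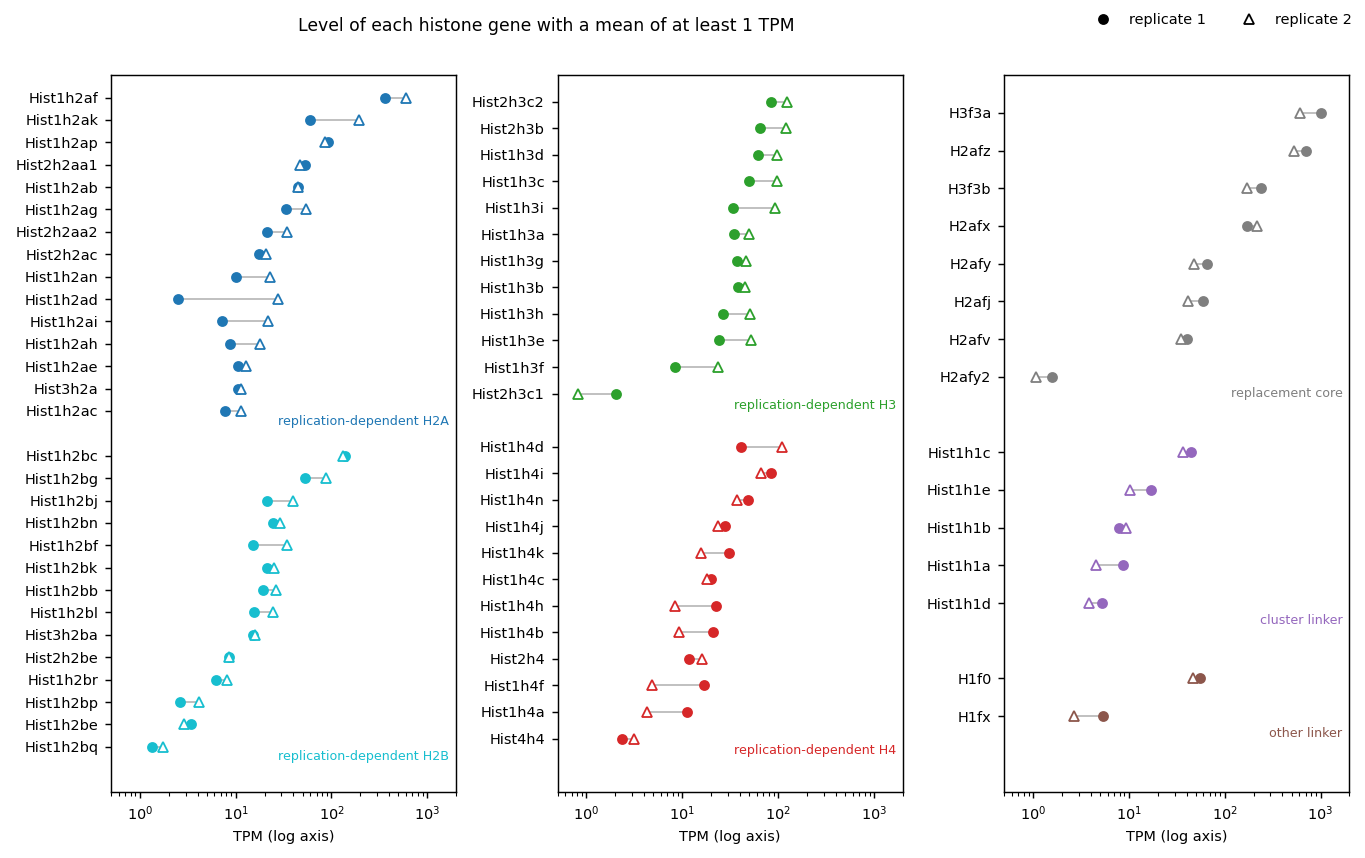
TPM (log axis) of each histone gene with a mean of at least 1 TPM, grouped by class, with filled circles for replicate 1, open triangles for replicate 2 and a line joining the pair. H3f3a and H2afz lie furthest right, Hist1h2af leads the replication-dependent genes at 360.4 and 602 TPM, and the widest gap is that of Hist1h2ad.

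The authors' transcript shares were read for some replacement genes with several transcripts. These shares are estimates, and fragments averaged 214 nt in replicate 1 and 303 nt in replicate 2. The part of fragment length in the share differences below was not tested. In H3f3a a 724-nt transcript (H3f3a-207) held 59.5% of the gene's abundance in replicate 1 and 37.6% in replicate 2, an 888-nt one (H3f3a-201) 30.3% and 44.3%, and a 2841-nt one (H3f3a-205) 7.54% and 15.7%. By these estimates the 724-nt form led in replicate 1 and the 888-nt form in replicate 2. In M21 the 888-nt and 2841-nt forms both have 4 exons, with 380 nt and 2245 nt after the stop codon. H2afz used 1 main transcript (H2afz-201) at 91.1% and 95.9%. For H2afv the 519-nt transcript (H2afv-201) held 27.0% in replicate 1 and 2.78% in replicate 2. In H2afy the protein-coding H2afy-201 (2046 nt) held 46.4% and 37.1%. H2afy-204 (889 nt), annotated as a processed transcript and not as protein-coding, held 35.4% and 50.5%. The junction file, which pools both replicates, gave 46802 reads over the 9 annotated introns of H3f3a, 13184 over 3 of H3f3b and 12266 over 13 of H2afy. It gave 11420 over 5 of H2afv and 3781 over 6 of H2afz. H2afz thus had fewer junction reads than H2afv, although its TPM was higher in both libraries (712 TPM and 533 TPM against 40.1 TPM and 34.9 TPM). The reason was not tested.

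Of the 58 replication-dependent core genes, 52 were detected at 1 TPM or more in both libraries. At 10 TPM or more in both there were 37 and at 100 TPM or more 2, Hist1h2af and Hist1h2bc. Hist1h2af stood far above the rest of the H2A genes, at 360.4 TPM in replicate 1 and 602 TPM in replicate 2 (481 ± 171), and made up 48.6% and 49.9% of replication-dependent H2A TPM, or 36.0% and 34.5% of the counts. It lies at chr13:23533906-23534304 (mm10), and its estimated counts were 8456 and 5824. Next came Hist1h2ak at 59.1 TPM and 192 TPM, Hist1h2ap at 92.3 TPM and 86.3 TPM, and Hist2h2aa1 at 53.4 TPM and 47.2 TPM. Hist1h2ab and Hist1h2ag had means of 45.0 TPM and 43.8 TPM. Means between 10 and 30 TPM were found for Hist2h2aa2 (27.6), Hist2h2ac (19.1), Hist1h2an (16.5), Hist1h2ad (15.2), Hist1h2ai (14.5), Hist1h2ah (13.3), Hist1h2ae (11.8) and Hist3h2a (10.9). Hist1h2aa was at 0 in both libraries.

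Among H2B genes Hist1h2bc led at 139 TPM and 131 TPM (135 ± 6.00), or 40.2% and 29.8% of replication-dependent H2B TPM and 46.6% and 40.8% of the counts. It is the cluster gene with clear splicing, with 2971 reads over its 1 annotated intron, against at most 60 reads over the annotated introns of any other cluster gene with an mm9 row. Hist1h2bg followed at 53.1 TPM and 86.7 TPM, and Hist1h2bj at 21.4 TPM and 39.5 TPM. Hist1h2bn, Hist1h2bf, Hist1h2bk, Hist1h2bb, Hist1h2bl and Hist3h2ba had means of 26.8, 24.8, 23.3, 23.0, 20.1 and 15.4 TPM. The testis gene Hist1h2ba was at 0 in both libraries.

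H3 genes were more even. Hist2h3c2 was at 84.3 TPM and 124 TPM (104 ± 27.7), Hist2h3b at 64.9 TPM and 120.2 TPM, and Hist1h3d at 61.4 TPM and 97.2 TPM. Hist1h3c had a mean of 73.8 TPM and Hist1h3i one of 63.1 TPM. Hist1h3a, Hist1h3g, Hist1h3b, Hist1h3h and Hist1h3e had means between 38.5 and 42.0 TPM, and Hist1h3f one of 16.1 TPM. The 7 genes for the identical H3 protein summed to 331 TPM and 560 TPM and the other 5 cluster H3 genes to 134 TPM and 239.6 TPM. The H3.3 pair held 72.8% of all H3 TPM in replicate 1 and 49.3% in replicate 2 (61.1% ± 16.6), and 85.3% and 75.8% of H3 counts.

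H4, which has no replacement gene among the members, had its highest mean TPM in Hist1h4d, at 40.6 TPM and 110.7 TPM, and Hist1h4i, at 83.6 TPM and 65.7 TPM. The order of these 2 in TPM was opposite in the 2 libraries. In counts Hist1h4i was higher in both, with 5425 and 2762 against 921 and 1006 for Hist1h4d, and the mm9 table gave 27.0 RPKM for Hist1h4i and 7.13 RPKM for Hist1h4d. Hist1h4n was at 48.1 TPM and 37.1 TPM. Hist1h4j, Hist1h4k, Hist1h4c, Hist1h4h, Hist1h4b, Hist2h4 and Hist1h4f had means of 26.0, 23.4, 19.1, 15.6, 14.9, 13.9 and 10.9 TPM. Hist1h4m was at 0 in both libraries, but 88.1% of the 101-base words of its model are shared with Hist1h4n, so its reads could have been assigned there.

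Linker histones were lower than the leading core genes. Of the cluster genes, Hist1h1c, for H1.2, was at 44.8 TPM and 37.0 TPM and Hist1h1e, for H1.4, at 17.2 TPM and 10.3 TPM. Hist1h1b, for H1.5, was at 7.88 TPM and 9.26 TPM. Hist1h1a and Hist1h1d had means of 6.66 and 4.55 TPM. The replacement linker H1f0, for H1.0, which is known to accumulate in cells that leave the cycle, was at 55.6 TPM and 46.5 TPM and exceeded Hist1h1c in both libraries. H1fx was at 5.43 TPM and 2.65 TPM. H1f0 and H1fx together held 42.1% and 43.1% of the TPM of the somatic linkers, and their log2 ratio to the 5 cluster linkers was −0.46 and −0.40 (−0.43 ± 0.04). The germline linkers were near or at 0: Hist1h1t (testis) had 11 and 2 counts, H1foo (oocyte) 1 and 0, and H1fnt (spermatid) none.

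Sums by class put the replication-dependent core at 1890.4 TPM in replicate 1 and 2762 TPM in replicate 2 (2326 ± 616), the replacement core at 2294 TPM and 1652 TPM (1973 ± 454) and the linkers at 145 TPM and 114 TPM (130 ± 22.0). The replication-dependent to replacement log2 ratio was −0.28 in replicate 1 and 0.74 in replicate 2 (0.23 ± 0.72), so which class was larger depended on the library. An exact sign test on 2 libraries cannot go below p = 0.5. Per kilobase of full rather than effective length the ratio was −0.78 and −0.27, with the replacement core higher in both libraries. In counts, replication-dependent genes took 0.0806% and 0.0969% of all gene counts and replacement genes 0.262% and 0.236%. Bulk values cannot tell more cells of a type from more RNA per cell.

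**Figure D2:**
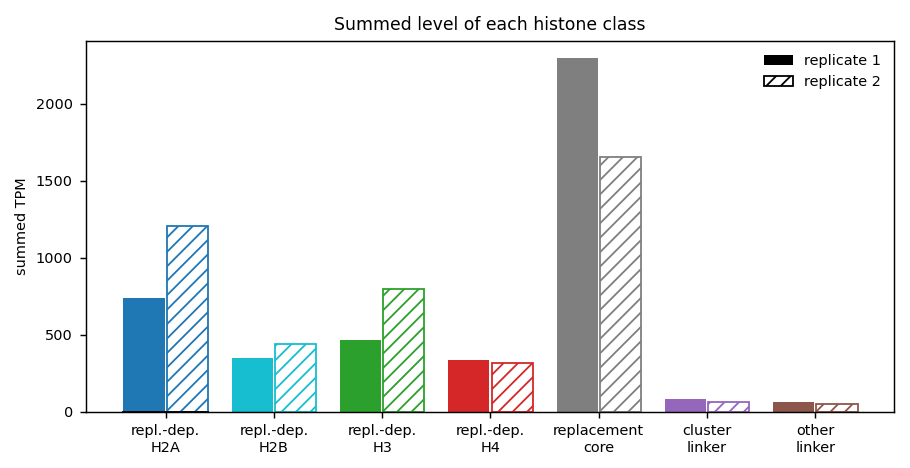
Summed TPM (linear axis from 0) of each histone class, solid bars for replicate 1 and hatched bars for replicate 2. The H2A and H3 cluster sums are higher in replicate 2 (741 against 1207 TPM for H2A), the replacement sum is higher in replicate 1, and the H4 sums are 337 and 317 TPM.

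The 2 libraries were compared gene by gene on counts with an exact conditional binomial test and Benjamini-Hochberg adjustment over all 17906 genes with at least 10 counts, with a call needing both a 2-fold difference and an adjusted p below 0.05. Over all genes 1497 were called, or 8.36%, of which 3.74% of tested genes were higher and 4.62% lower in replicate 2. Of the 79 histone genes 70 were tested and 11 were called, 4 higher and 7 lower in replicate 2, and all 11 were replication-dependent core genes. With spike-in library sizes the split turned, with 25 of 30 called histone genes higher and 5 lower. The calls over all genes turned as well. With spike-in sizes 21.7% of all genes were called, and 92.7% of those calls were higher in replicate 2, against 44.7% of the 1497. With the sizes that gave the 11 calls, none of the 8 tested replacement genes and 8 tested linker genes reached 2-fold with an adjusted p under 0.05. By the binomial test's adjusted p alone, with no fold minimum, 59 of the 70 histone genes differed, against 60.7% of all genes. The median log2 difference (replicate 2 over replicate 1) was −0.01 over all tested genes, 0.25 over replication-dependent core genes, −0.27 over replacement genes and −0.45 over cluster linkers. With spike-in library sizes, which move the median of all tested genes to 0.65, these became 0.91, 0.39 and 0.21, so that the replacement and cluster linker medians changed sign but stayed below that of all genes.

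Within the replication-dependent genes the families went different ways. The median log2 count difference was 0.57 for H3, 0.29 for H2A, 0.16 for H2B and −0.81 for H4, and with spike-in sizes 1.23, 0.95, 0.82 and −0.15. Of 12 tested H3 genes 10 were higher in replicate 2 by sign, and of 12 tested H4 genes 9 were lower. H4 held 18.7% of replication-dependent counts in replicate 1 and 13.9% in replicate 2, and H3 29.1% and 38.0%. The difference between the families was not tested, since members are not replicates.

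**Figure D3:**
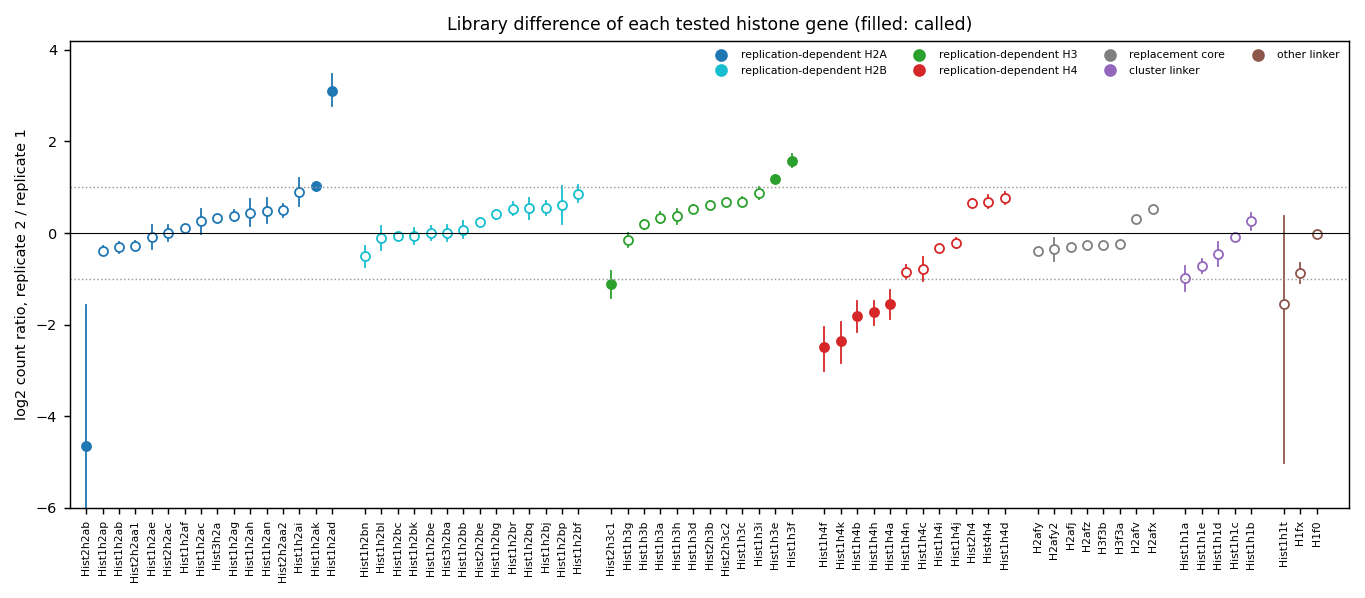
Log2 count ratio of replicate 2 to replicate 1 for each of the 70 tested histone genes with its exact 95% interval of counting error, grouped by class and sorted within it, with filled points for called genes and dotted lines at 2-fold. The 5 called H4 genes lie between −2.50 and −1.56, the replacement genes lie between −0.39 and 0.52, and the interval of Hist2h2ab runs off the lower edge.

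The 5 called H4 genes were all lower in replicate 2. Hist1h4f (chr13:23551258-23551648) had 383 counts in replicate 1 and 43 in replicate 2, 5.65-fold lower after scaling (log2 −2.50, 95% interval −3.00 to −2.06, adjusted p = 4.7e-40 by the exact binomial test). Hist1h4k went from 388 to 48.1 counts (log2 −2.36), Hist1h4b from 480.4 to 86.9 (−1.82), Hist1h4h from 745 to 143 (−1.74) and Hist1h4a from 460 to 100.1 (−1.56). The other H4 genes Hist1h4d, Hist2h4 and Hist4h4, were higher in replicate 2 by 0.77, 0.66 and 0.68 on the log2 scale, under the 2-fold minimum, and Hist1h4i, Hist1h4j, Hist1h4c and Hist1h4n lay between −0.84 and −0.21. The H4 genes therefore did not move as 1 block although they code for the same protein.

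The lowest H4 genes had M21 transcripts that end soon after the stem-loop or before it. The 5 tested H4 genes with under 200 nt beyond it (Hist1h4n, Hist1h4h, Hist1h4b, Hist1h4f and Hist1h4a) had log2 differences from −2.50 to −0.84, with a median of −1.74. The 6 with 200 nt or more beyond it (Hist1h4d, Hist1h4i, Hist1h4j, Hist1h4c, Hist2h4 and Hist4h4) lay between −0.79 and 0.77, with a median of 0.22. On these M21 models the ranges did not overlap, but their ends, −0.84 and −0.79, were close. Hist1h4k, whose model ends at the stop codon, was at −2.36. This split was made after the values were seen and carries no test. In H2A the 8 tested genes with under 200 nt beyond had a median of −0.03 and the 2 with more had 0.29. In H3 the 4 with less had 0.26 and the 5 with more had 0.67. In H2B the 7 with less had 0.41 and the lone gene with more, Hist1h2be, was at 0.00. The counts were made on M4 models, and 13 of 57 replication-dependent models are longer in M21. Hist1h2ac and Hist1h3d, both placed above among genes with 200 nt or more beyond, have M4 models of 476 nt and 560 nt against 2482 nt and 1249 nt in M21. The H2A and H3 groups therefore hold for M21 models only. The M4 models of Hist1h4d and Hist1h4c are 393 nt and 395 nt long and hold 81 nt and 83 nt outside the coding sequence. With these 2 placed among the short ends the split was undone: the 7 short ends then ranged from −2.50 to 0.77, around all 4 long ones (−0.33 to 0.68).

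**Figure D4:**
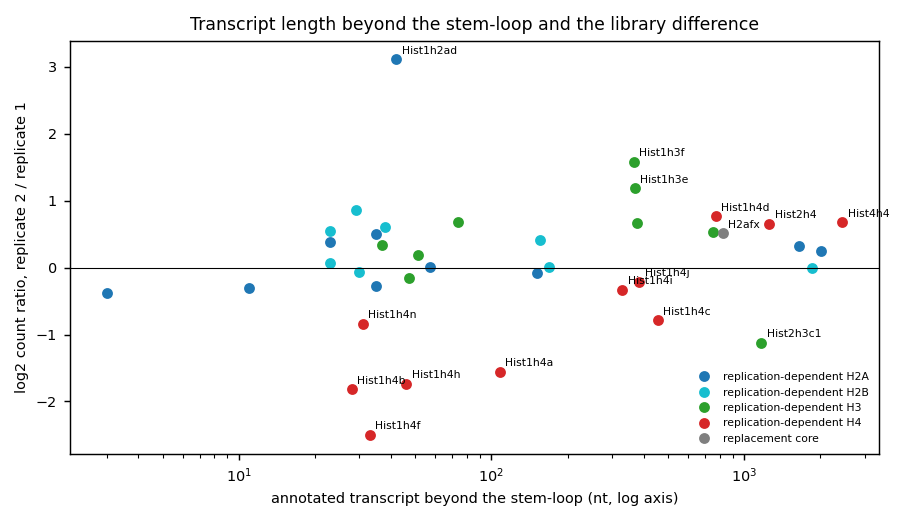
Length of annotated M21 transcript beyond the stem-loop (nt, log axis) against the log2 count ratio of replicate 2 to replicate 1, for tested core histone genes with a stem-loop found. Hist1h4f lies lowest at −2.50, and Hist1h4d, Hist2h4 and Hist4h4 at the right lie above 0, where Hist1h4d has its M21 length and not that of the M4 model it was counted on.

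Other short RNAs were compared in counts as well. Of 8 tested RNAs that mostly lack a poly(A) tail 6 were called, all lower in replicate 2, with Rn7sk (7SK RNA) at 25646 and 7786 counts (log2 −1.08) and Rmrp at 1137 and 177 (−2.04). The signal recognition particle RNA genes Rn7s1 and Rn7s2 had the same 4744 and 803 counts each (−1.92), so they may count as 1, Rpph1 was at −1.50 and Scarna13 at −4.20. The list also held Scarna2 at 0.21 and Terc at 0.64. In TPM the sum of the list was 2839 and 2812, most of it from Rn7sk, which was higher in replicate 2 at 1722 TPM and 1937 TPM. The other called RNAs were lower in replicate 2 in TPM too. Rn7s1 and Rn7s2 were at 431 TPM and 313 TPM each, Rmrp at 154 TPM and 106 TPM, Rpph1 at 46.8 TPM and 42.0 TPM, and Scarna13 at 9.01 TPM and 1.13 TPM. Scarna2, Terc and the untested Rnu12 were higher in replicate 2 in TPM. Tested protein-coding genes with models of 300 to 600 nt, histone genes left out, had a median log2 difference of −0.61, with 49 of 235 called lower and 10 called higher. Of the 58 replication-dependent models 42 were in this length range. The medians over all tested members of H2A, H2B and H3 were above −0.61 and that of H4 was below it. The part of library fragment length or of RNA without poly(A) tails in the H4 differences was not tested.

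The 4 genes called higher in replicate 2 were H2A and H3 genes. Hist1h2ad had 79.6 and 445 counts (8.63-fold, log2 3.11, 95% interval 2.77 to 3.48, adjusted p = 4.4e-102 by the exact binomial test). Hist1h3f went from 669 to 1286 counts (log2 1.58), Hist1h3e from 1908 to 2782 (1.18) and Hist1h2ak from 1343 to 1742 (1.02). Hist1h3e and Hist1h3f share the same stem-loop and flanking letters and 23.9% to 37.6% of their 101-base words. The 2 remaining called genes were low and lower in replicate 2: Hist2h2ab had 19 counts and 0, at least 4.06-fold lower against a floor of 3 counts in replicate 2, and Hist2h3c1 had 418 and 123 counts (−1.12). With the spread of housekeeping genes added in edgeR's exact test, 8 of the 11 stayed called, and Hist1h2ak, Hist1h3e and Hist2h3c1 did not, at adjusted p = 0.19, 0.073 and 0.16.

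Near-identical copies make single-gene values less certain than class sums. In M21 transcripts 25 of the 58 replication-dependent genes shared at least 50% of their 101-base words with another gene, with a median of 41.0% over that class against 1.32% for replacement genes. Hist2h2aa2 and Hist2h3c1 shared all of theirs with Gm20634, an overlapping gene model, and Hist1h2ap shared 92.1% with Hist1h2ao, which itself was given 0 and 3.36 counts. The authors' tables also give a posterior SD for each count, which measures how firmly shared reads were assigned. It was 0.249% and 0.155% of the count for Hist1h2af, although 65.2% of the words of that gene are also in Hist1h2ad. For Hist1h2ad it was 18.3% and 2.95%, and for Hist2h3c1 35.6% and 62.3%, the highest among members with at least 10 counts. For the 5 called H4 genes it was at most 4.88%. This SD covers assignment among the annotated genes only, and the part of read assignment in the differences was not tested. Sums with the gene sharing most words were made after the calls were seen. Beyond 2-fold on the log2 scale were Hist1h2ad with Hist1h2ah at 1.76, Hist1h3e with Hist1h3f at 1.30 and Hist1h4k with Hist1h4a at −1.87. So were Hist1h4b with Hist1h4k at −2.04 and Hist1h4f with Hist1h4h at −1.96. In these H3 and H4 sums the partner was itself a called gene. Under 2-fold were Hist1h4h with Hist1h4j at −0.50, Hist1h2ak with Hist1h2ap at 0.19, Hist2h3c1 with Gm20634 at 0.32 and Hist2h2ab with Hist2h2ac at −0.03.

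Coverage past the annotated 3′ ends was read from the deposited mm9 contigs, which pool both replicates, with each extension stopped at the next gene on the same strand. Of 47 replication-dependent genes with an mm9 row 44 had a contig on their strand, and in 36 of these (81.8%) it ran at least 50 nt past the annotated end, in 19 (43.2%) at least 500 nt. Over all 22869 genes of that table with a contig the shares were 40.6% and 19.6%. They were 62.5% and 25% for the 8 replacement genes with a contig, and 80% at both lengths for the 5 cluster linker genes. All 12 H4 genes with a row ran past, by 249 nt for Hist1h4a up to 10184 nt for Hist1h4k, and Hist1h4m, at 0 counts, was covered too. The contig of H2afx ran 2337 nt past its end. Where the mm9 models end relative to the stop codon was not measured. Those of Hist1h4k and Hist1h2an (312 nt and 393 nt) are as long as their M21 models, which end at the stop codon. For such genes part of the extension can be the 3′ untranslated region itself. Other mm9 models are longer, such as that of Hist2h4 at 1608 nt.

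The mm9 gene table, a separate quantification by the authors, holds 67 of the 79 genes. As the mean of its pair of RPKM columns the 47 replication-dependent genes summed to 550.3 RPKM and the 11 replacement genes to 278 RPKM, a log2 ratio of 0.99. Over members with an mm9 row, the mm10 TPM ratio was −0.03. That is near 0 beside an SD of 0.72 between the libraries for all members.

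Of 28 listed genes for histone mRNA processing 25 were matched and tested, 24 of them were at 1 TPM or more in both libraries (Zfp473 was at 0.91 TPM and 0.78 TPM) and none was called. Slbp, the stem-loop binding protein, was at 138 TPM and 96.9 TPM, Ccne1 (cyclin E1) at 68.2 TPM and 50.5 TPM, Cdk2 at 33.4 TPM and 32.8 TPM, and Srrt, a cap-complex partner, at 36.6 TPM and 24.9 TPM. Of 36 histone chaperone and exchange genes, all at 1 TPM or more, 3 were called, all lower in replicate 2, a share near the 8.36% of all genes. These were Npm1 at 684 TPM and 289.8 TPM (log2 count difference −1.14), Ncl at 194 TPM and 52.6 TPM (−1.16) and Dnajc9 at 67.4 TPM and 26.9 TPM (−1.13). Set was at 160 TPM and 52.3 TPM, and Mcm2, a helicase subunit that binds H3 and H4, at 107 TPM and 96.6 TPM. None of the 20 S-phase genes was called, led by Pcna at 374 TPM and 351 TPM, Ccna2 at 148 TPM and 107 TPM, Tk1 at 130 TPM and 123 TPM, and Rrm2 at 133 TPM and 86.7 TPM. The median log2 count differences of these 3 lists were −0.23, −0.09 and −0.17, beside −0.01 for all genes.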

How the data were processed

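Polyadenylated RNA of embryonic mouse liver was measured in 2 libraries of 1 group. Per the file headers, the authors deposited expected counts (estimated, so fractional), with TPM and FPKM, per gene and transcript, the percent of a gene's abundance per transcript and a posterior SD of each count. A deposited note names mm10 and annotation M4; no quantifier or version was given in the sources used here. The mm9 set holds RPKM of an unnamed replicate pair (mean used), contigs with a coverage signal and junctions with read counts, per the file headers.

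Symbols came from GENCODE M21 (42462 of 43346 genes). Members and lists were chosen with earlier results of these data known. Named are members averaging 10 TPM or more, the highest 3 of each class, called members and members at 0, with the highest 4 and the called genes of each list. Expected counts were rounded and compared between the libraries (exact conditional binomial test, two-sided) with TMM sizes (edgeR 4.0.16, R 4.3.3), 0.5 added for fold changes. A quasi-likelihood test needs a contrast between groups and was not run, and p-values measure these 2 libraries only. On simulated counts for replicate 2 over replicate 1, the test ran on 17912 genes and called 98.9% of the 94 given a 3-fold change, 100% of the 106 given a 6-fold change and 0 of the rest. The simulated libraries held counting error only, with no added spread between them, and changed genes were drawn from the better-counted ones. The run therefore cannot show how often spread between real libraries gives a call. DESeq2 1.42.0 gave alternative size factors. Python 3.11.15, numpy 2.4.6, pandas 2.3.3, scipy 1.17.1 and matplotlib 3.10.9 did the rest. Spike-in rows (2.84% and 1.82% of counts) and phiX rows (0.0764% and 0.0857%) stayed out. Without molecular identifiers, intervals and floors cover only counting error. Alternatives covered library sizes, count minimum, test, unit, mm9 table, class limits and single libraries.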

Additional observations from a re-analysis of the deposited data

How the results depend on the processing

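The 11 called histone genes became 10 with a count minimum of 50, 30 with spike-in sizes (25 higher, 5 lower), 8 with edgeR's exact test and housekeeping dispersion and 59 with no fold minimum, and the calls over all genes 797, 3887, 513 and 10870 under the same settings. With spike-in sizes 92.7% of the calls over all genes were higher in replicate 2. DESeq2 size factors, total gene counts and no count minimum kept the histone count at 11. The medians of replication-dependent and replacement genes were 0.91 and 0.39 with spike-in sizes, the second reversed, and 0.40 and −0.46 on deposited TPM. In FPKM the sums of the replication-dependent core, the replacement core and the linkers were 3168, 2589 and 171. Counts per kilobase of full length gave 1432 for the replication-dependent sum. The mm9 table gave 550.3, 278 and 19.5 RPKM, where members with no mm9 row count as 0. The replication-dependent to replacement ratio was reversed at −0.53 per kilobase of full length, was 0.99 in the mm9 table and −0.03 in mm10 TPM over members with an mm9 row (chosen after seeing the data), and ranged from −0.28 to 0.74 over single libraries, also reversed. The linker ratio was −0.20 per kilobase of full length and was not run in the mm9 table, where H1f0 has no row. The number of replication-dependent genes detected was 45 at 5 TPM and 53 at 0.1 TPM. Over single libraries the sums ranged from 1890.4 to 2762, 1652 to 2294 and 114 to 145 TPM. Beyond the settings' own construction the cause was not tested. No paired analysis was possible because there is 1 group. Leaving out a library ends the comparison of libraries. Depth limits single genes under about 10 counts, such as Hist1h1t and Hist1h2ao. With M4 lengths, chosen after seeing the data, the H4 groups by transcript end overlapped.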

Other observations

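Of the 9 rows with a histone symbol that are not protein-coding, the processed pseudogene H3f3c was at 30.2 TPM in replicate 1 and 5.93 TPM in replicate 2, from 755 and 64.3 counts, and H3f3a-ps2 had 254 and 32.6 counts. Both resemble H3f3a, whose M21 transcripts share 4.44% of their 101-base words with H3f3c, so their reads are uncertain. The unprocessed pseudogene Hist1h2aj was at 5.31 and 5.46 TPM. Cenpa, the centromeric H3 variant whose symbol falls outside the rule, was at 98.0 and 93.4 TPM.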
